A study of Danio rerio with 12 samples.

Results

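The ventricle of adult *nr2f1a* aco mutant zebrafish was compared with the ventricle of WT zebrafish across all genes in bulk RNA-seq, in which the cells of a whole dissected chamber are read out as one pool of RNA. The comparison uses 4 of the 12 libraries of the series, 2 from the *nr2f1a* aco mutant ventricle and 2 from the WT ventricle, and these were chosen by the genotype in their titles and genotype labels. For the mutant libraries the source name and the tissue label read WT, so the genotype rests on the title and the genotype label. Both groups came from adults aged 6 months to 1.5 years of the AB/TU background as labelled, with the ventricles of 20 fish pooled in each library, and no group received a treatment. The other 8 libraries hold the SV of *nr2f1a* aco mutants and the SV, atrium and BA of WT fish. SV stands for the sinus venosus, the venous inflow of the heart, and BA for the bulbus arteriosus, its outflow vessel.

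Nr2f1a is an orphan nuclear receptor that zebrafish use to build the atrium, and it keeps atrial cardiomyocytes (CMs) from taking other identities. The aco allele came from a mutagenesis screen and carries a deletion in the region before the coding sequence, so that its transcript can still be made. Only part of the fish homozygous for it survive to adulthood, without a muscular atrium and with an enlarged ventricle. The paper reports that all adult mutants in time show signs of cardiac dysfunction, so the mutant libraries come from such survivors. The allele is kept as a homozygous line, and the effects of the allele and of the line's genetic background cannot be told apart in this design. The ventricle itself is the main pump of the fish heart. Its CMs draw most of their energy from the oxidation of fatty acids in densely packed mitochondria, and between them lie endocardium, coronary vessels, fibroblasts and resident macrophages.

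The deposited counts summed to 35022571 and 47245524 in the mutant ventricle libraries and to 60532949 and 56291321 in the WT ventricle libraries, within a range of 28325098 to 60532949 over the series. Values are given below as CPM, the usual depth-scaled unit of counts, after scaling by TMM (the trimmed mean of M-values, which sets the bulk of genes level between libraries), for replicates 1 and 2 in that order. Mitochondrially encoded genes held 14.9% and 17.3% of all counts in the mutant ventricle and 20.2% and 15.3% in the WT ventricle. Replicates differed by more than sampling noise, since the chi-square divided by its degrees of freedom was 281 in the mutant ventricle and 355 in the WT ventricle. The libraries of the series were prepared in several batches of different types, and the batch of each library is not given in the sources used here, nor is the sex of the fish. The libraries of a group are described as experimental replicates of pooled tissue, without a label for the clutch or the day. The p-values measure the spread between replicate libraries, pooled over all 6 groups and left after 1 fitted factor of unwanted variation. That spread may be technical.

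All 4 libraries carried the markers of ventricular muscle. *vmhcl*, a ventricular myosin heavy chain, had 18688 and 57691 CPM in the mutant ventricle and 22124 and 106087 CPM in the WT ventricle. Its near copy *vmhc* had 1382 and 765 CPM in the mutant ventricle and 221 and 2099 CPM in the WT ventricle. The authors kept only uniquely aligned reads, so reads shared by these copies were dropped. *nr2f1a* itself had 2.05 and 1.48 CPM in the mutant ventricle and 1.35 and 1.70 CPM in the WT ventricle, so the groups overlapped. Since the aco transcript can still be made, this level does not check the genotype. The related *nr2f2* had 13.7 and 10.7 CPM in the mutant ventricle and 11.3 and 12.7 CPM in the WT ventricle, again with overlap.

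Of 19145 genes tested, 52 differed between the mutant and the WT ventricle, which is 0.272% of all genes. Such genes, whose p in the quasi-likelihood test of edgeR stayed below 0.05 after Benjamini-Hochberg adjustment, are termed called. Among them, 32 (0.167% of all genes) were higher and 20 (0.104%) were lower in the mutant ventricle. The libraries of the groups did not overlap for 27 of the 32 higher genes and for all 20 lower genes. Over all genes tested, both mutant libraries lay above both WT libraries for 23.7% and below them for 23.5%. Calls rest on these same values, so the lack of overlap is no separate support for them. Provisional symbols were carried by 23 of the 52. At an unadjusted p below 0.05 there were 2740 genes (14.3%), with 8.62% of all genes higher and 5.69% lower. The fit held all 12 libraries and 1 factor of unwanted variation, estimated by RUVs from the differences between replicates, as the study's own analysis did. The number called depended on that factor and on single libraries. It was 4 without the factor and 8 with a block for the replicate number beside it. With DESeq2, the study's own test, in place of edgeR it was 737, with 461 higher and 276 lower. It was 0 in edgeR with the replicate block in place of the factor, where 2367 genes had an unadjusted p below 0.05, and 0 when the 4 ventricle libraries were fitted alone, where 2237 had. It was 23 without mutant ventricle replicate 1, 108 without mutant ventricle replicate 2 and 0 without either WT ventricle library, with 1585 genes at an unadjusted p below 0.05 without WT ventricle replicate 1 and 3777 without WT ventricle replicate 2.

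With library totals in place of TMM, the median log2 fold change of all genes moved to 0.53 and 150 genes were called, of which 135 were higher. Directions below are therefore relative to the bulk of genes, whose median was 0.02 with TMM. That all-gene median was 0.09 without mutant ventricle replicate 1 and -0.13 without mutant ventricle replicate 2. It was -0.03 without WT ventricle replicate 1 and 0.20 without WT ventricle replicate 2. List medians from those fits are to be read beside these values.

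Among the called genes that were higher in the mutant ventricle, and that had a standard symbol, at least 1 CPM and libraries without overlap, the 10 largest changes fell on genes of unlike function. *dnah7*, a motor protein of cilia, had 6.45 and 9.98 CPM in the mutant ventricle and no count in either WT ventricle library, so it was at least 101.5-fold higher when 3 counts per WT library are taken as the limit of detection. *ptprt*, a receptor tyrosine phosphatase, had 13.7 and 13.4 CPM in the mutant ventricle and 0.442 and 0.323 CPM in the WT ventricle, a log2 fold change of 5.25 with a standard error of 0.56 (edgeR, Benjamini-Hochberg adjusted p = 0.00856). Of all 12 libraries, the mutant ventricle pair held the highest levels of *ptprt*, and in the mutant SV it had 0.229 and 0.337 CPM against 0.160 and 0.279 CPM in the WT SV. *scd*, the stearoyl-CoA desaturase that makes monounsaturated fatty acids, had 8.86 and 8.88 CPM in the mutant ventricle and 0.270 and 0.528 CPM in the WT ventricle (log2 fold change 4.93, standard error 0.75). *eya2*, a transcriptional coactivator with phosphatase activity, had 19.5 and 14.2 CPM in the mutant ventricle and 1.40 and 1.996 CPM in the WT ventricle (3.22, standard error 0.41). For these 4 genes both mutant libraries lay far above both WT libraries, by more than either pair differed within itself.

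*nbl1*, a secreted antagonist of BMP signals, had 10.16 and 12.2 CPM in the mutant ventricle and 2.46 and 1.14 CPM in the WT ventricle (log2 fold change 3.56, standard error 0.43). *cacna1aa*, the pore subunit of a voltage-gated calcium channel best known from neurons, had 12.4 and 33.2 CPM in the mutant ventricle and 6.61 and 2.17 CPM in the WT ventricle (3.43, standard error 0.37). *phyhipla* had 6.69 and 8.28 CPM in the mutant ventricle and 1.33 and 0.910 CPM in the WT ventricle (3.10, standard error 0.35). Being higher in both mutant libraries was a condition of naming these 3 genes, and the replicates of *cacna1aa* were the farthest apart. The fitted sizes moved between the alternative fits. Their log2 fold changes ranged from 2.62 to 3.58 for *nbl1*, 2.37 to 3.43 for *cacna1aa* and 2.73 to 3.10 for *phyhipla*. *hbae5*, an alpha-type globin with near copies, had 42.0 and 17.7 CPM in the mutant ventricle and 0.147 and 1.76 CPM in the WT ventricle (4.35, standard error 0.56). Reads shared by its copies were dropped, since only uniquely aligned reads were kept. *pvalb3*, a parvalbumin that buffers calcium in fast muscle, had 5.87 and 54.2 CPM in the mutant ventricle and 1.97 and 0.910 CPM in the WT ventricle, so most of its difference lay in 1 mutant library. *cyp3c4*, a cytochrome P450, had 1.998 and 6.63 CPM in the mutant ventricle and 0.344 and 0.176 CPM in the WT ventricle (4.74, standard error 0.79). Further called genes were *ankrd44*, *plpp2b* and *cyp46a1.4*, which were higher by log2 fold changes of 2.18, 2.27 and 2.73. *pcolcea*, an enhancer of procollagen processing, was called although its 129 and 369 CPM in the mutant ventricle overlapped the 172 and 47.9 CPM of the WT ventricle, and its log2 fold change was 2.30 with the RUVs factor and 1.18 without it.

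**Figure D1:**
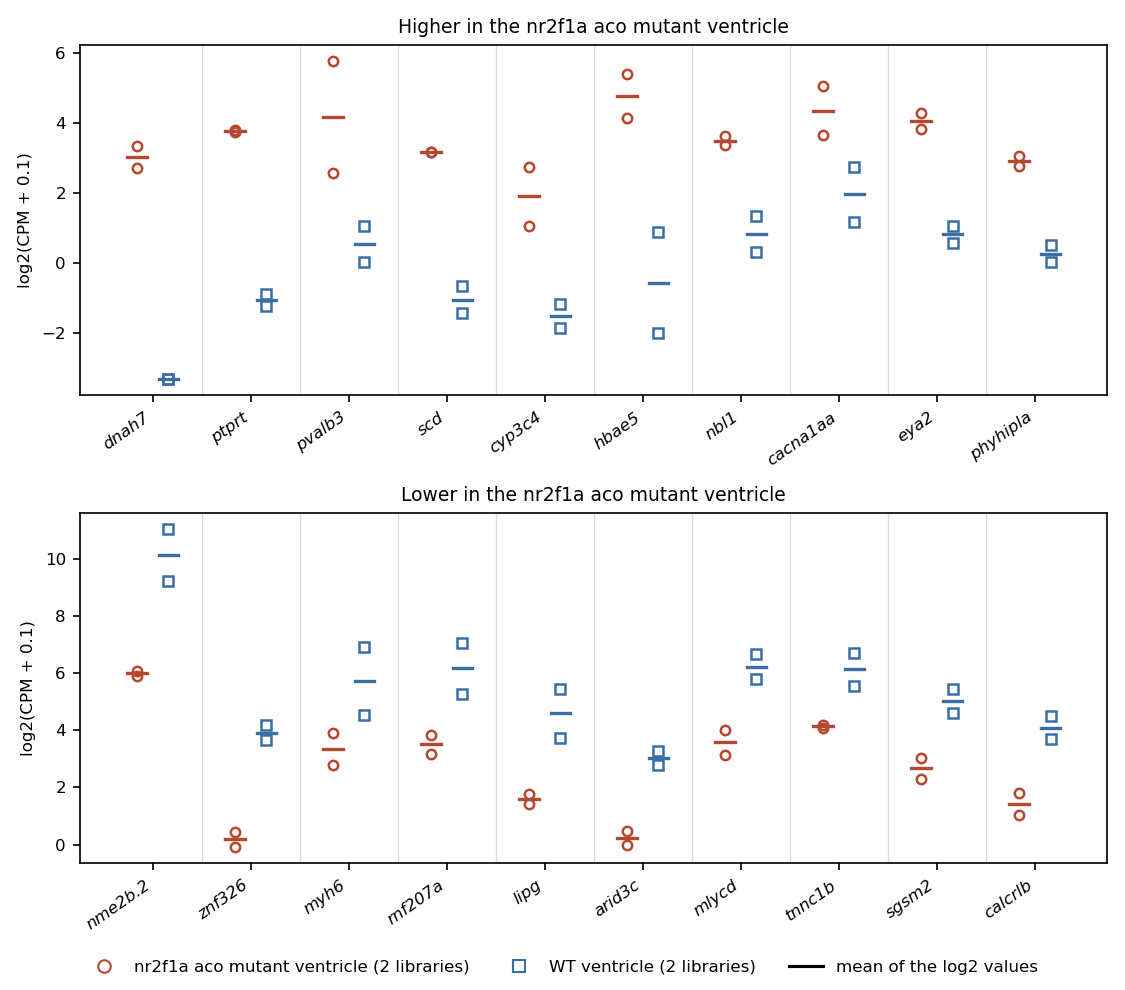
The level of the 10 named genes with the largest increases (top) and the 10 with the largest decreases (bottom) on a log2 axis of CPM plus 0.1, with 1 symbol per library, circles for the *nr2f1a* aco mutant ventricle, squares for the WT ventricle and lines for the mean of 2 libraries. Libraries without overlap were a condition of naming these genes, and *dnah7* lies at 0 counts in both WT libraries.

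The called genes that were lower in the mutant ventricle included genes of muscle and of metabolism. *myh6*, the atrial myosin heavy chain, had 14.7 and 6.74 CPM in the mutant ventricle and 23.2 and 121 CPM in the WT ventricle, a log2 fold change of -3.61 with a standard error of 0.43 (edgeR, Benjamini-Hochberg adjusted p = 0.0104). Over 9 alternative fits this fold change ranged from -3.63 to -2.62. *tnnc1b*, a troponin C, had 16.7 and 18.1 CPM in the mutant ventricle and 46.9 and 105 CPM in the WT ventricle (-2.59, standard error 0.45). Both genes are far more abundant in the WT atrium, which had 1645 and 8449.7 CPM of *myh6* and 4334 and 12049.9 CPM of *tnnc1b*, and the mutant fish have no such chamber beside the ventricle. The paper does describe a small ring of cells with *myh6* next to the atrioventricular valves of mutant hearts. Whether that ring, or atrial tissue at the cut edge of the WT ventricle, had a part in these differences was not tested. The list of atrial muscle genes as a whole, 7 genes, had 1 called member, *myh6*, and 1 member with both mutant libraries above both WT libraries. Its median log2 fold change was 0.14, but -0.14 without mutant ventricle replicate 1 and -0.49 without WT ventricle replicate 2. Its summed level was 146 and 159 CPM in the mutant ventricle and 246 and 220 CPM in the WT ventricle. Without *myh6* the sums were 131 and 152 CPM against 223 and 99.1 CPM, so the groups overlapped. The other troponin C gene, *tnnc1a*, had 1051 and 5141 CPM in the mutant ventricle and 4771 and 5786 CPM in the WT ventricle and was not called.

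*mlycd*, the malonyl-CoA decarboxylase that relieves the block on fatty acid entry into mitochondria, had 8.74 and 15.9 CPM in the mutant ventricle and 55.0 and 100.5 CPM in the WT ventricle (log2 fold change -2.70, standard error 0.44). *slc6a8*, the creatine transporter, had 11.5 and 12.9 CPM in the mutant ventricle and 27.2 and 52.5 CPM in the WT ventricle (-2.04, standard error 0.34). The groups did not overlap for either gene. *lipg*, the endothelial lipase, had 3.27 and 2.60 CPM in the mutant ventricle and 13.3 and 43.8 CPM in the WT ventricle (-3.54, standard error 0.62). *calcrlb*, a receptor for peptides of the adrenomedullin family, had 1.93 and 3.37 CPM in the mutant ventricle and 22.4 and 12.7 CPM in the WT ventricle (-2.32, standard error 0.37). *rnf207a*, a ubiquitin ligase with a RING finger, had 14.3 and 8.99 CPM in the mutant ventricle and 38.3 and 134 CPM in the WT ventricle (-3.60, standard error 0.60). For each of these genes both WT libraries lay above both mutant libraries, while the WT replicates of *lipg* and *rnf207a* stood well apart.

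*nme2b.2*, a nucleoside diphosphate kinase, had 60.1 and 67.6 CPM in the mutant ventricle and 598 and 2085 CPM in the WT ventricle (log2 fold change -4.59, standard error 0.67). Its neighbour copy *nme2b.1* had 843 and 1099 CPM in the mutant ventricle and 1308 and 1324 CPM in the WT ventricle and was not called. The authors kept only uniquely aligned reads, so reads shared by such near copies were dropped, and the size of the *nme2b.2* difference is uncertain. *znf326*, a zinc finger protein, had 0.842 and 1.26 CPM in the mutant ventricle and 12.4 and 17.997 CPM in the WT ventricle (-4.12, standard error 0.49). *arid3c*, a DNA-binding protein, had 0.891 and 1.29 CPM in the mutant ventricle and 6.73 and 9.54 CPM in the WT ventricle (-2.81, standard error 0.49). *sgsm2*, a regulator of small GTPases, had 4.81 and 8.11 CPM in the mutant ventricle and 24.1 and 43.4 CPM in the WT ventricle (-2.55, standard error 0.42). The groups were apart for each, which was a condition of naming these genes. Each of these 20 genes, the 10 largest changes per direction among called genes with a standard symbol, a mean of at least 1 CPM in the higher group and libraries that did not overlap, was called in 2 to 7 of the alternative fits run for it, 9 for most, and in 0 to 2 of the 4 fits that left out a ventricle library.

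Macrophage genes stood higher in the mutant ventricle. The list of macrophage and leukocyte genes had 39 members tested, of which 32 (82.1%) were higher in both mutant libraries than in both WT libraries and 1 was lower in both, against 23.7% and 23.5% of all genes tested. The list's median log2 fold change was 1.59, against 0.02 over all genes, and 38 of 39 members were above 0. At an unadjusted p below 0.05, 26 members were higher and 1 was lower, and 3 were called, all higher, while DESeq2 called 17, all higher. *mfap4*, a macrophage marker in zebrafish, had 25.2 and 10.96 CPM in the mutant ventricle and 1.06 and 2.64 CPM in the WT ventricle (log2 fold change 2.74, standard error 0.41, edgeR, Benjamini-Hochberg adjusted p = 0.0272). *havcr1*, a receptor of the TIM family that binds the lipids of dying cells, had 23.7 and 13.3 CPM in the mutant ventricle and 2.09 and 3.38 CPM in the WT ventricle (2.58, standard error 0.38). *spi1a*, one of the zebrafish copies of the myeloid transcription factor PU.1, had 14.4 and 13.2 CPM in the mutant ventricle and 2.68 and 3.82 CPM in the WT ventricle (2.18, standard error 0.38). In bulk tissue, more cells of a type and more RNA per cell cannot be told apart.

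Other macrophage genes lay on the same side without being called. *mpeg1.1*, the macrophage perforin, had 15.0 and 12.5 CPM in the mutant ventricle and 1.35 and 3.32 CPM in the WT ventricle (log2 fold change 2.503, edgeR, Benjamini-Hochberg adjusted p = 0.0549). *c1qa*, a subunit of the complement component that macrophages secrete, had 29.9 and 14.8 CPM in the mutant ventricle and 1.47 and 5.55 CPM in the WT ventricle, and *c1qc* had 60.1 and 38.7 CPM in the mutant ventricle and 7.71 and 16.8 CPM in the WT ventricle. *marco*, a scavenger receptor, had 105 and 19.3 CPM in the mutant ventricle and 3.19 and 9.48 CPM in the WT ventricle. The groups were apart for each of these 4 genes, and *marco* was the most uneven between mutant replicates. The exceptions were *arg2*, an arginase, with 20.8 and 57.6 CPM in the mutant ventricle and 113 and 159.8 CPM in the WT ventricle, and *mhc2dab*, an MHC class II chain, with 0.120 and 7.65 CPM in the mutant ventricle and 14.6 and 0.235 CPM in the WT ventricle. For *mhc2dab* each group held 1 high and 1 low library, and its fitted log2 fold change was 3.55. The summed level of the list was 992 and 964 CPM in the mutant ventricle and 403 and 578 CPM in the WT ventricle.

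The median of the list was above 0 in every setting run. It lay between 1.36 and 2.102 over 13 alternative fits and was 2.13 with library totals, where 35 of 39 members were higher in both mutant libraries against 46.3% of all genes. Without WT ventricle replicate 1, 18 members were higher at an unadjusted p below 0.05, and without WT ventricle replicate 2, 29 were.

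Genes of other white blood cells lay on the same side. Of 12 neutrophil genes tested, 10 (83.3%) were higher and 1 (8.33%) was lower in both mutant libraries, against 23.7% and 23.5% of all genes. At an unadjusted p below 0.05, 6 were higher and 1 was lower. None was called by edgeR, while DESeq2 called 2 higher and 1 lower. Without mutant ventricle replicate 1 or without WT ventricle replicate 1, 3 neutrophil genes were higher at that threshold, and the median, 1.24 with all libraries, was 2.07 without WT ventricle replicate 2. *lyz*, the lysozyme gene, had 35.5 and 34.3 CPM in the mutant ventricle and 7.27 and 6.99 CPM in the WT ventricle, and *npsn*, a protease of zebrafish neutrophils, had 13.8 and 10.4 CPM in the mutant ventricle and 0.909 and 1.97 CPM in the WT ventricle. *mpx*, the neutrophil myeloperoxidase, had 1.23 and 0.850 CPM in the mutant ventricle and 3 counts or fewer in each WT ventricle library. The exception was *s100a10b*, with 217 and 261 CPM in the mutant ventricle and 463 and 588 CPM in the WT ventricle. Of 31 lymphocyte genes, 11 (35.5%) were higher and 1 (3.23%) was lower in both mutant libraries. At an unadjusted p below 0.05, 10 were higher, while none was called by edgeR and 3 were called higher by DESeq2. Their median was 1.15, or 0.44 without mutant ventricle replicate 2, and without WT ventricle replicate 1 the number higher at an unadjusted p below 0.05 was 4. Among them *cd28*, the costimulatory receptor of T cells, had 5.08 and 2.82 CPM in the mutant ventricle and at most 3 counts in a WT ventricle library, at least 48.8-fold higher. Of 21 erythrocyte genes, 12 (57.1%) were higher and 2 were lower in both mutant libraries, 8 were higher and 1 was lower at an unadjusted p below 0.05, *hbae5* was called and the median was 0.81. Among them *cahz*, a carbonic anhydrase of red cells, had 248 and 133 CPM in the mutant ventricle and 53.3 and 98.1 CPM in the WT ventricle. The globins *ba1* and *hbaa1*, which are the most abundant members in WT, overlapped between the groups, as did the summed level of the list, which was 17641 and 10964 CPM in the mutant ventricle and 10024 and 15776 CPM in the WT ventricle. Without mutant ventricle replicate 1 the median of the erythrocyte list was 0.45 with 1 member higher at an unadjusted p below 0.05, and without mutant ventricle replicate 2 it was 1.23 with 13.

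**Figure D2:**
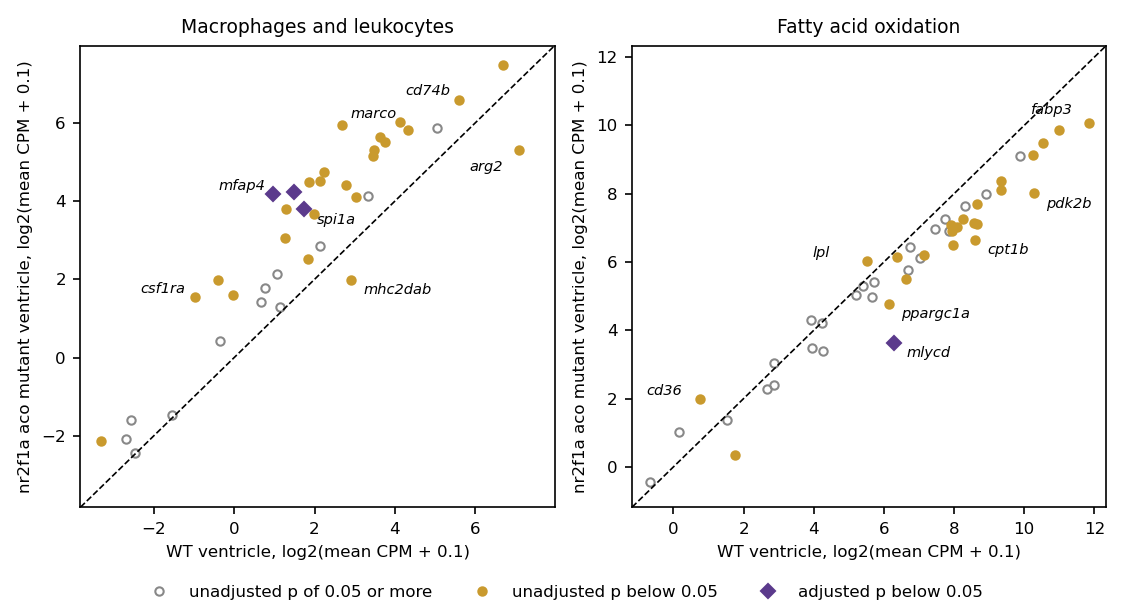
Mean CPM of each gene of the macrophage and leukocyte list (left) and of the fatty acid oxidation list (right), on log2 axes with 0.1 added, in the *nr2f1a* aco mutant ventricle (vertical) against the WT ventricle (horizontal), each point the mean of 2 libraries filled symbols for an unadjusted p below 0.05, diamonds for called genes and the dashed line the line of equal levels. Of 39 macrophage and leukocyte genes, 38 had a fitted log2 fold change above 0, while only 8 of 47 fatty acid oxidation genes did. The points show mean CPM and not fitted values, so *mhc2dab* lies below the line although its fitted log2 fold change was above 0.

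Genes of fatty acid oxidation stood lower in the mutant ventricle. Of 47 members tested, 32 (68.1%) were lower in both mutant libraries and 2 (4.26%) were higher in both, against 23.5% and 23.7% of all genes. The median log2 fold change was -0.84. At an unadjusted p below 0.05, 22 were lower and 2 were higher, and the only called member was *mlycd*, while DESeq2 called 9 lower. *cpt1b*, the muscle carnitine palmitoyltransferase that commits fatty acids to oxidation, had 87.4 and 114 CPM in the mutant ventricle and 423 and 345 CPM in the WT ventricle (log2 fold change -1.90, edgeR, Benjamini-Hochberg adjusted p = 0.105). *fabp3*, the fatty acid carrier of heart muscle, had 811 and 1349.7 CPM in the mutant ventricle and 2971 and 4364 CPM in the WT ventricle (-1.95, standard error 0.49). *pdk2b*, a kinase that restrains the use of pyruvate, had 261 and 253 CPM in the mutant ventricle and 1323 and 1154 CPM in the WT ventricle (-1.93, edgeR, Benjamini-Hochberg adjusted p = 0.0518). The groups were apart for all 3, by more than the spread of either pair. *acadl*, the long-chain acyl-CoA dehydrogenase, had 99.8 and 175 CPM in the mutant ventricle and 396 and 415 CPM in the WT ventricle. *ppargc1a*, the coactivator PGC-1alpha that drives mitochondrial genes, had 21.2 and 33.5 CPM in the mutant ventricle and 36.5 and 104 CPM in the WT ventricle. On the other side, *lpl*, the lipoprotein lipase, had 55.4 and 74.5 CPM in the mutant ventricle and 61.4 and 30.1 CPM in the WT ventricle, and the groups overlapped.

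The nuclear genes of oxidative phosphorylation, the subunits of the respiratory chain and of the ATP synthase, lay below the WT level as a block. Of 85 tested, 75 (88.2%) were lower in both mutant libraries and 0 were higher in both, against 23.5% and 23.7% of all genes. The median log2 fold change was -0.97, with 3 members above 0. At an unadjusted p below 0.05, 51 were lower and 1, *cox4i2*, was higher, and none was called by edgeR. DESeq2 called 3 lower, beside 276 lower of all 19145 genes. *ndufb2*, a subunit of complex I, had 115 and 197 CPM in the mutant ventricle and 434 and 386 CPM in the WT ventricle (-1.42, standard error 0.39). *cox6a2*, the muscle form of a cytochrome c oxidase subunit, had 1338 and 2825 CPM in the mutant ventricle and 5713 and 4397 CPM in the WT ventricle. *sdhb*, of complex II, had 248 and 611 CPM in the mutant ventricle and 1095 and 790.1 CPM in the WT ventricle, and *atp5g3b*, of the ATP synthase, had 1503 and 3263 CPM in the mutant ventricle and 5941 and 4854 CPM in the WT ventricle. The same order recurs in these genes, with mutant ventricle replicate 1 lowest and WT ventricle replicate 1 highest. The 13 mitochondrially encoded genes had a median of -0.51, which was 0.06 with library totals, with 6 lower in both mutant libraries and none at an unadjusted p below 0.05. Without mutant ventricle replicate 2 that median was -1.12 with 8 of 13 lower at an unadjusted p below 0.05, and without mutant ventricle replicate 1 it was -0.23. *cox4i2*, the exception, had 8.86 and 16.9 CPM in the mutant ventricle and 11.4 and 8.31 CPM in the WT ventricle, so its libraries overlapped.

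The sign of both medians was the same in all settings run, and their size was not. For oxidative phosphorylation the median was -0.57 without mutant ventricle replicate 1, beside 0.09 for all genes. It was -1.72 without mutant ventricle replicate 2, beside -0.13 for all genes. The number of members lower at an unadjusted p below 0.05 depended strongly on the library left out, and such numbers over all genes moved too. For fatty acid oxidation the median was -0.51 without mutant ventricle replicate 1 and -1.40 without mutant ventricle replicate 2. With library totals, the medians were -0.55 and -0.36 beside 0.53 for all genes, and 44 of 85 and 16 of 47 members were lower in both mutant libraries, against 7.46% of all genes.

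Markers of heart muscle were lower in part of the same libraries. The summed level of the genes of the thin filament and sarcomere scaffold was 30361.5 and 71174 CPM in the mutant ventricle and 72601 and 90988 CPM in the WT ventricle, lowest in mutant ventricle replicate 1. Of its 54 members, 18 (33.3%) were lower and 4 (7.41%) were higher in both mutant libraries, against 23.5% and 23.7% of all genes. The median was -0.63, and *tnnc1b* was the one called. The median was -1.42 without mutant ventricle replicate 2, -0.29 without mutant ventricle replicate 1 and -0.21 without WT ventricle replicate 2. A ratio within each library does not depend on the scaling between libraries. The fatty acid oxidation sum was 17.85% and 13.55% of the sarcomere sum in the mutant ventricle and 23.2% and 19.6% in the WT ventricle, so this ratio was lower in both mutant libraries. For oxidative phosphorylation it was 106% and 96.9% in the mutant ventricle and 150.9% and 102% in the WT ventricle, and for the mitochondrially encoded genes 413% and 314% in the mutant ventricle and 414.5% and 278.5% in the WT ventricle, where the groups overlapped. For the macrophage and leukocyte list it was 3.27% and 1.355% in the mutant ventricle and 0.555% and 0.6355% in the WT ventricle. The part that the share of muscle RNA has in these differences was not tested.

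The groups overlapped for *myl7*, *nppa* and *nppb*. *myl7*, the cardiac regulatory light chain, had 8849 and 26011 CPM in the mutant ventricle and 19287 and 37964 CPM in the WT ventricle. *nppa* and *nppb*, the natriuretic peptide genes that heart muscle raises under load, had 2848 and 5672 CPM and 1157 and 2692 CPM in the mutant ventricle, and 1096 and 5444 CPM and 967 and 3071 CPM in the WT ventricle. The fitted log2 fold changes of *nppa* and *nppb* were 0.20 and -0.45 with standard errors of 0.79 and 1.06, so a moderate difference was not detectable here. The list of load and stress genes had 28 members. In both mutant libraries 5 (17.9%) were higher and 9 (32.1%) were lower, against 23.7% and 23.5% of all genes. Its median was -0.19, and 0.40 with library totals beside 0.53 for all genes. That median was 0.22 without WT ventricle replicate 2, beside 0.20 for all genes. It was -0.62 without mutant ventricle replicate 2, beside -0.13 for all genes. None of the list was called by edgeR, with 3 higher and 3 lower at an unadjusted p below 0.05. DESeq2 called 1 higher, beside 461 higher and 276 lower of all 19145 genes. Its member with the smallest p, *fhl2b*, had 6.28 and 12.4 CPM in the mutant ventricle and 5.92 and 3.26 CPM in the WT ventricle (log2 fold change 1.55, standard error 0.37). On the lower side *acta1b*, a skeletal-type actin whose groups did not overlap, had 1948 and 5323 CPM in the mutant ventricle and 14611 and 9862 CPM in the WT ventricle. For glycolysis and lactate, 2 of 44 genes (4.55%) were higher and 16 (36.4%) were lower in both mutant libraries, against 23.7% and 23.5% of all genes. The list had 8 members lower at an unadjusted p below 0.05 and a median of -0.61. That median was -1.29 with 15 lower without mutant ventricle replicate 2, and -0.32 with 5 lower without mutant ventricle replicate 1, while without WT ventricle replicate 2 there were 4 lower. The leading member was *pfkfb4a*, which sets the level of a glycolytic activator, with 18.1 and 39.4 CPM in the mutant ventricle and 94.6 and 104 CPM in the WT ventricle.

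**Figure D3:**
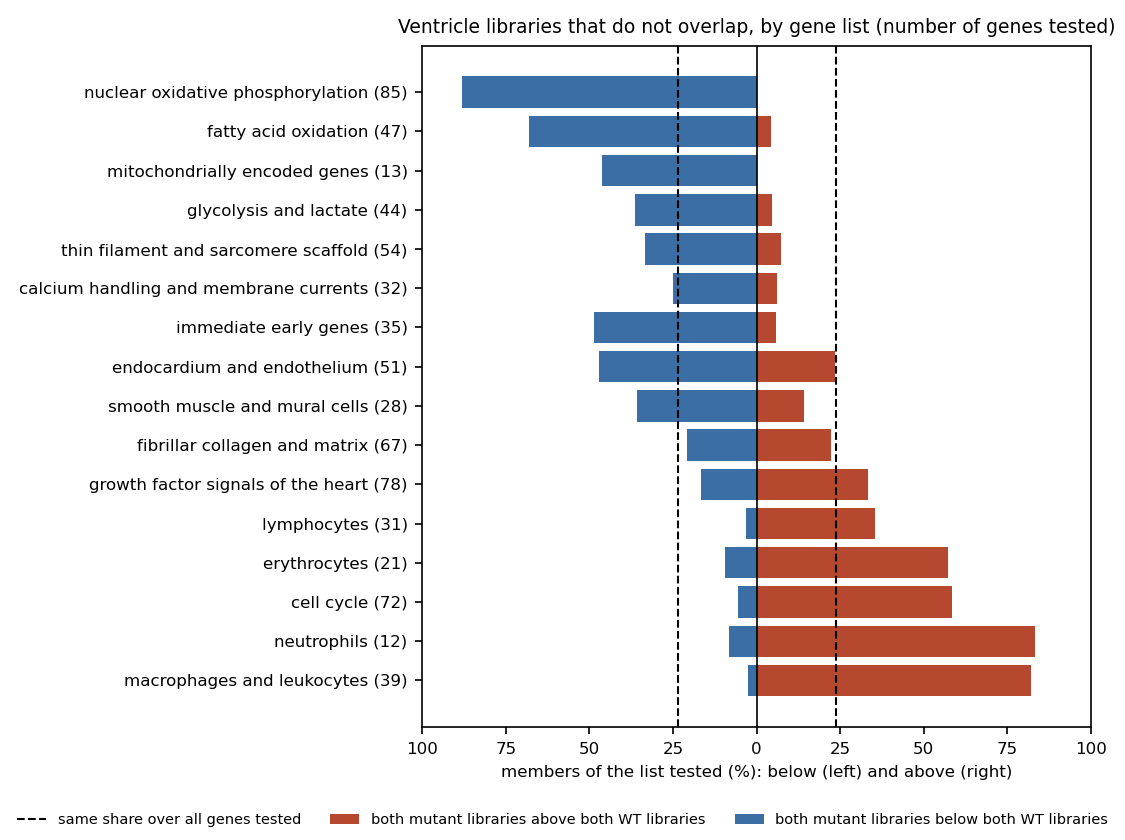
Share of the members of 16 gene lists whose 2 *nr2f1a* aco mutant ventricle libraries both lay above (right, red) or both below (left, blue) the 2 WT ventricle libraries after TMM scaling, in percent of the genes tested, with the dashed lines at the shares over all genes (23.7% above and 23.5% below). Oxidative phosphorylation reaches 88.2% on the lower side, and neutrophils and macrophages reach 83.3% and 82.1% on the higher side.

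The endothelial list stood out from all genes on the lower side, while its higher share was near that of all genes. Of 51 genes of endocardium and endothelium, 24 (47.1%) were lower and 12 (23.5%) were higher in both mutant libraries, against 23.5% and 23.7% of all genes. At an unadjusted p below 0.05, 11 (21.6%) were lower and 5 (9.8%) higher, against 5.69% and 8.62% of all genes. None was called by edgeR, and DESeq2 called 1 higher and 6 lower. The list's median was -0.24, and 0.30 with library totals beside 0.53 for all genes. It was -0.38 without WT ventricle replicate 1, beside -0.03 for all genes. Without WT ventricle replicate 2 it was 0.03, beside 0.20 for all genes. *aqp8a.1*, a water channel of the zebrafish endocardium, had 233 and 769.8 CPM in the mutant ventricle and 2228 and 1856 CPM in the WT ventricle. *tek*, the angiopoietin receptor, had 28.5 and 29.3 CPM in the mutant ventricle and 99.5 and 77.2 CPM in the WT ventricle (log2 fold change -1.79, standard error 0.45). *klf2a* and *klf2b*, transcription factors that blood flow induces in endothelium, had 45.5 and 91.8 CPM and 61.6 and 119 CPM in the mutant ventricle, and 322 and 209.6 CPM and 379.9 and 293 CPM in the WT ventricle. The groups were apart for each of these 4 genes. The *klf2* genes also stand in the list of immediate early genes. Of its 35 members, 17 (48.6%) were lower and 2 (5.71%) were higher in both mutant libraries, against 23.5% and 23.7% of all genes. There *nr4a3*, an orphan nuclear receptor of that class, had 29.7 and 63.6 CPM in the mutant ventricle and 322 and 418 CPM in the WT ventricle. The median of this list was -0.21 with TMM, -0.84 without the RUVs factor, -0.18 to -0.66 with 1 ventricle library left out, and 0.47 with library totals beside 0.53 for all genes, and none was called by edgeR, with 6 lower and 0 higher at an unadjusted p below 0.05 and 6 lower by DESeq2.

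Cell cycle genes lay on the higher side at low levels. Of 72 tested, 42 (58.3%) were higher and 4 (5.56%) were lower in both mutant libraries, against 23.7% and 23.5% of all genes. At an unadjusted p below 0.05, 10 (13.9%) were higher and 0 were lower, against 8.62% and 5.69% of all genes. None was called by edgeR. DESeq2 called 2 higher, beside 461 higher of all 19145 genes. The list's median was 0.78. *birc5a*, the survivin gene of dividing cells, had 4.57 and 1.43 CPM in the mutant ventricle and 0.123 and 0.440 CPM in the WT ventricle, and *incenp*, its partner at the centromere, had 8.81 and 4.303 CPM in the mutant ventricle and 1.23 and 1.53 CPM in the WT ventricle. *pcna*, the clamp of DNA replication and the most abundant member, had 103 and 108 CPM in the mutant ventricle and 114 and 80.6 CPM in the WT ventricle, and *mki67* had 27.7 and 6.33 CPM in the mutant ventricle and 2.01 and 6.72 CPM in the WT ventricle, so these overlapped. The summed level was 671 and 427 CPM in the mutant ventricle and 384 and 335 CPM in the WT ventricle. Without mutant ventricle replicate 1 the median was 0.40 and 4 members were higher at an unadjusted p below 0.05.

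For fibrillar collagen and matrix, 15 of 67 genes (22.4%) were higher and 14 (20.9%) were lower in both mutant libraries, shares near those of all genes, with a median of 0.02. That median was 0.75 without WT ventricle replicate 2, beside 0.20 for all genes, and -0.22 without WT ventricle replicate 1, beside -0.03. With all libraries, 9 members were higher and 7 lower at an unadjusted p below 0.05. For smooth muscle and mural cells, 4 of 28 (14.3%) were higher and 10 (35.7%) were lower in both mutant libraries, against 23.7% and 23.5% of all genes. The list's median was -0.15 (0.37 with library totals, -0.29 without WT ventricle replicate 1). None was called by edgeR, while 3 were higher and 6 lower at an unadjusted p below 0.05, and DESeq2 called 1 higher and 3 lower. The growth factor list had 26 of 78 (33.3%) higher and 13 (16.7%) lower in both mutant libraries, against 23.7% and 23.5% of all genes. Its median was 0.43, with 11 higher and 2 lower at an unadjusted p below 0.05 and none called by edgeR. On its lower side *tgfb3*, a ligand of the TGF-beta family, had 46.1 and 64.2 CPM in the mutant ventricle and 205 and 184 CPM in the WT ventricle (log2 fold change -1.60, edgeR, Benjamini-Hochberg adjusted p = 0.0805). In the list of complement and acute phase genes, 12 of 33 (36.4%) were higher and 3 (9.09%) were lower in both mutant libraries. None was called by edgeR with 7 higher and 1 lower at an unadjusted p below 0.05, and DESeq2 called 3 higher and 1 lower. Its median was 1.15, or -0.35 without mutant ventricle replicate 2, 1.82 without mutant ventricle replicate 1 and 2.41 without WT ventricle replicate 2. Its member *c7a*, of the membrane attack complex, had 351 and 111 CPM in the mutant ventricle and 21.6 and 39.4 CPM in the WT ventricle.

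The mutant ventricle was set against the mutant SV by a test of whether the genotype difference differed between the tissues. This test called 38 genes, 0.198% of all genes, with 34 (0.178%) where the difference was more positive in the ventricle and 4 (0.0209%) where it was more negative (edgeR, Benjamini-Hochberg). Of the 38, 27 were also called between the mutant and the WT SV, 5 were called in the ventricle and 6 in neither tissue. In the SV comparison, 1.54% of all genes were called. Of the 52 genes called in the ventricle, 43 had a fold change of the same sign in the SV and 13 were called there too, all in the same direction. The share of all genes with the same sign in both tissues was not counted, so 43 of 52 has no baseline here. The ventricle and SV comparisons come from different libraries but from 1 fit and the same lines of fish.

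The 5 genes called in the ventricle and in the test of the difference were *ptprt*, *pvalb3*, LOC795887, si:dkey-224b4.5 and si:ch211-214b16.2, and the groups overlapped in the ventricle for si:dkey-224b4.5 and si:ch211-214b16.2. For *ptprt*, the fold change in the ventricle exceeded that in the SV by 4.83 on the log2 scale (standard error 0.74, edgeR, Benjamini-Hochberg adjusted p = 0.0417). *pvalb3* had 0.779 and 2.65 CPM in the mutant SV and 37.0 and 40.1 CPM in the WT SV, opposite to its order in the ventricle. *myh6* and *tnnc1b* were lower in the mutant in both tissues, with *myh6* at 39.7 and 5.51 CPM in the mutant SV and 304 and 202 CPM in the WT SV. *mlycd* had 2.54 and 1.73 CPM in the mutant SV and 1.85 and 2.42 CPM in the WT SV, and its difference between tissues was -2.64 on the log2 scale (standard error 0.60, edgeR, Benjamini-Hochberg adjusted p = 0.124), which did not pass the threshold. The list medians in the SV were 0.67 for macrophages and leukocytes, -0.04 for nuclear oxidative phosphorylation, -0.02 for fatty acid oxidation and 0.26 for the cell cycle. No test of the lists between tissues was run.

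**Figure D4:**
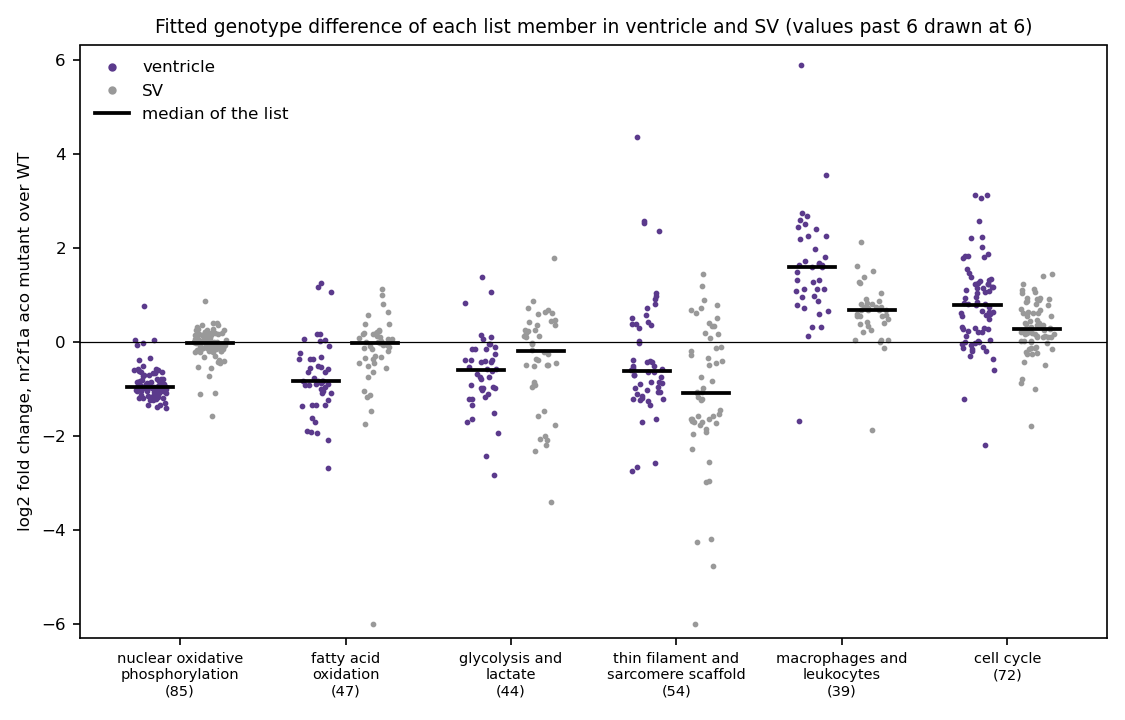
Fitted log2 fold change (*nr2f1a* aco mutant over WT, vertical axis) of each member of 6 gene lists in the ventricle (purple, left of each pair) and in the SV (grey, right), with values past 6 drawn at 6, a bar at the list's median and the number of genes tested in brackets. The ventricle medians are -0.97 for nuclear oxidative phosphorylation and 1.59 for macrophages and leukocytes, beside -0.04 and 0.67 in the SV.

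**Figure D5:**
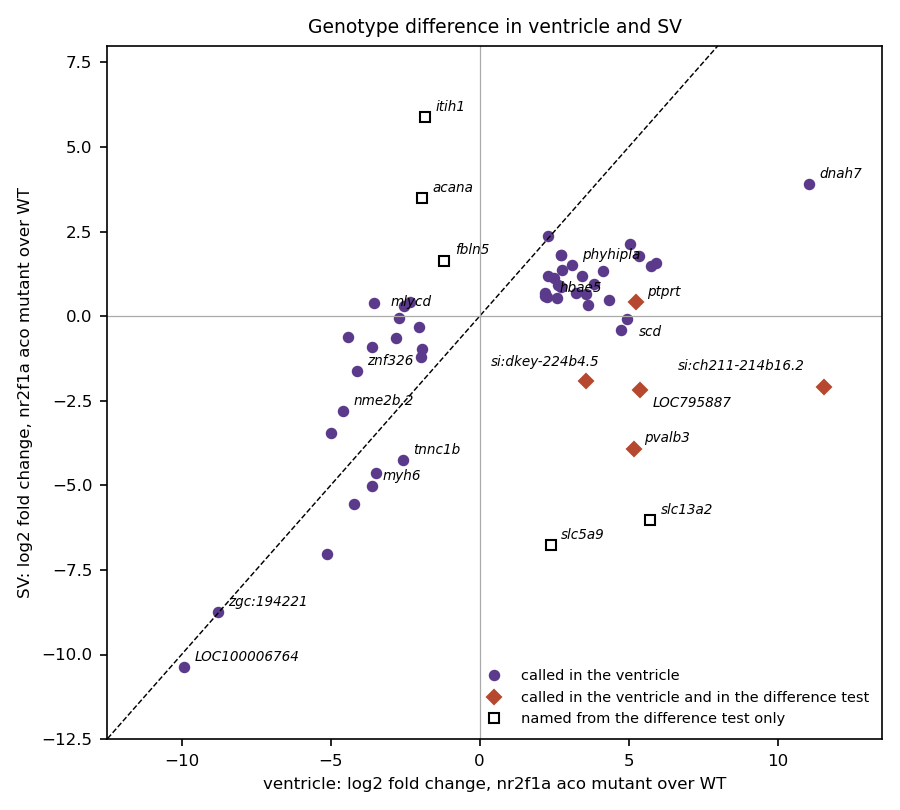
Log2 fold change (*nr2f1a* aco mutant over WT) in the ventricle (horizontal) and in the SV (vertical) of the 52 genes called in the ventricle and of 5 genes named from the test of the difference, with the dashed line at equal fold changes. *ptprt* and *pvalb3* lie to the right of the line and passed the test of the difference, while *myh6* and *tnnc1b* lie lower left with the same sign in both tissues.

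Some genes split all libraries by genotype, and these were chosen after their values were seen. LOC100006764 had 0 counts in all 4 mutant libraries and from 34 to 135 counts in the 8 WT libraries, and in the ventricle it had 66 and 87 counts in WT libraries, at least 27.0-fold lower in the mutant. zgc:194221 had 0 counts in the 4 mutant libraries and 25 to 58 in the 8 WT libraries, at least 13.3-fold lower in the mutant ventricle. Both were among the 20 genes called lower. In the other direction, *adgre9* had 10 to 13 counts in the mutant libraries and 0 in the WT libraries, and LOC103910966 had 12 to 81 counts in the mutant libraries and at most 2 in the WT libraries. In all, 4 genes had at most 3 counts in each mutant library and 10 or more in each WT library, and 2 had the reverse. Such genes separate the labelled genotypes in ventricle and SV alike, and the allele and the line of fish cannot be told apart in them. Among the 100 tested genes on each side of *nr2f1a* in the order of the GRCz12tu annotation, 2 of 200 were called, *arid3c* and LOC100001405, beside 52 of 19145 (0.272%) among all genes, and 14.5% had an unadjusted p below 0.05, beside 14.3% of all genes.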

How the data were processed

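The ventricle, SV, atrium and BA of zebrafish were measured by bulk RNA-seq in 12 libraries, 2 in each of 6 groups. Reads were trimmed (cutadapt) and mapped to danRer11 (STAR) by the authors, who kept unique reads, handled all libraries as single-end reads of matching strand and deposited counts from featureCounts for 22158 genes, of which 13 names had been turned into dates. They also deposited FPKM values, used here only to check tissue markers. Their group means and their own comparisons (fold changes and p-values) were not used.

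Counts were tested with edgeR 4.0.16 (R 4.3.3) in a quasi-likelihood fit of all 12 libraries with group terms, TMM scaling, the default filter on low counts and 1 RUVs factor. The study's methods also used 1 RUVs factor, but with DESeq2 as the test. Benjamini-Hochberg adjustment ran over 19145 genes, with a threshold of 0.05. Mutant ventricle replicates had a factor of 1.09 and -0.23, and WT ventricle replicates -1.72 and 0.38. The factor was thus not balanced between the genotypes, and the fitted fold changes include an adjustment for it. Genes were named by a rule: the 10 largest changes per direction among called genes with a standard symbol, a mean of at least 1 CPM in the higher group and non-overlapping libraries, the called or smallest-p member of each of 35 gene lists, the 3 largest differences per direction between ventricle and SV by the same criteria, a few heart genes fixed by name, and copies of a named gene. Not every gene that met this rule is given above. Genes outside the rule were named after their values were seen. The comparison and the lists were chosen with earlier results of these data known. Lists were described by counts and medians, without a test. The difference between ventricle and SV was an interaction contrast. Alternatives included DESeq2 1.42.0, other scalings and filters, a replicate block and each library left out. The method was tested on simulated counts with seeded changes in the ventricle. It called 0% of 68 genes changed by 1 on the log2 scale, 40.9% of 66 changed by 2 and 98.5% of 66 changed by 4. Among unchanged genes there were 7 false calls. A change of 1 on the log2 scale was thus not detectable in that simulation.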

Additional observations from a re-analysis of the deposited data

Results flagged for a closer look

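The genotype difference was not the same in the ventricle and in the SV for 38 genes by edgeR's interaction contrast with Benjamini-Hochberg adjustment. Of these, 23 had non-overlapping libraries in both tissues. Among those with a standard symbol, *slc13a2*, a sodium-coupled carrier of dicarboxylates, had a fitted difference of 11.7 on the log2 scale, which is no measured size because it includes a ventricle fold over libraries without a count. It had 11 and 1 counts in the mutant ventricle and 0 and 0 in the WT ventricle, and 0.275 and 0.650 CPM in the mutant SV against 28.2 and 33.5 CPM in the WT SV. *slc5a9*, a sodium-coupled sugar transporter, had a fitted difference of 9.17, with 15 and 3 counts in the mutant ventricle and 0 and 1 in the WT ventricle, so its size is not measured either. *pvalb3* differed by 9.09, higher in the mutant ventricle and with a log2 fold change of -3.91 in the SV.

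In the other direction, *itih1*, a hyaluronan-binding plasma protein, differed by -7.72, with 0.794 and 1.26 CPM in the mutant ventricle and 3.14 and 2.94 CPM in the WT ventricle, and 61.5 and 27.5 CPM in the mutant SV and 0.343 and 0.908 CPM in the WT SV. *acana*, the cartilage proteoglycan aggrecan, differed by -5.41, with 69.2 and 72.4 CPM in the mutant SV and 11.9 and 5.75 CPM in the WT SV. *fbln5*, which assembles elastic fibres, differed by -2.82, with 3.85 and 3.29 CPM in the mutant ventricle and 5.36 and 7.72 CPM in the WT ventricle.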

How the results depend on the processing

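Of 52 genes called in the ventricle and 38 called in the test of the difference from the SV, the counts were 4 and 5 without the RUVs factor, 737 and 599 with DESeq2, 28 and 10 with DESeq2 size factors in edgeR, and 33 and 11 without mitochondrially encoded and haemoglobin genes. With a mean CPM of at least 1 the test of the difference called 10. The ventricle count was 23 for a fold above 1.5 by glmTreat and 0 from edgeR on the 4 ventricle libraries alone, where 2237 genes had an unadjusted p below 0.05. With a replicate block instead of the RUVs factor, the counts were 0 and 2 (2367 ventricle genes at an unadjusted p below 0.05), and with the block beside the factor 8 and 9. Same-numbered mutant and WT ventricle libraries deviated with a correlation of -0.476. Within a genotype, it was -0.0821 between mutant ventricle and mutant SV and -0.00199 between WT ventricle and WT SV. Whether replicate numbers mark a shared preparation was not tested. A block that swapped the replicate numbers of the mutant libraries, chosen after seeing the data, called 171 and 12. Library totals, also chosen after seeing the data, called 150 in the ventricle, with 135 of 150 higher against 32 of 52 with TMM. Leaving out 1 ventricle library gave 0 to 108 in the ventricle, and leaving out 1 library gave 4 to 35 in the test of the difference. The provisional gene si:ch211-214b16.2, whose libraries overlap, had a log2 fold change of 11.56 and turned to -1.35 without the factor and -1.42 with the 4 ventricle libraries alone. The cause of these changes was not tested, nor was the effect of depth on the counts.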

Other observations

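*ctrb1*, a chymotrypsinogen, had 20.0 and 30.1 CPM in the mutant ventricle and 322 and 311 CPM in the WT ventricle (log2 fold change -3.90, edgeR, Benjamini-Hochberg adjusted p = 0.136). The gut and pancreas list as a whole showed no clear side, and 12 of its 26 members had at most 3 counts in each ventricle library. In both mutant libraries 2 (7.69%) were higher and 6 (23.1%) were lower, against 23.7% and 23.5% of all genes. Of the 26, 15 were above 0, with 4 higher and 2 lower at an unadjusted p below 0.05. The median of 0.75 was 0 without the RUVs factor, -0.12 without mutant ventricle replicate 2 and -0.11 without WT ventricle replicate 1. Across skeletal muscle genes, 2 of 24 (8.33%) were higher and 15 (62.5%) were lower in both mutant libraries, against 23.7% and 23.5% of all genes. Their median was -1.14, and it was -2.57 without mutant ventricle replicate 2 and -0.68 without mutant ventricle replicate 1.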
